A study of Arabidopsis thaliana with 26 samples.

Results

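Suspension cells of Arabidopsis thaliana given methyl jasmonate (JA) for 24 h were compared with control cells given ethanol for the same time, with 2 arrays in each group out of 26 arrays in 12 groups. The 2 JA arrays came from cells with 100 µM methyl jasmonate, and the 2 control arrays from cells with 0.6% ethanol; the labels do not state whether the JA cells also received ethanol. All belonged to T87, an established green suspension line that was subcultured weekly, so no whole plant, organ or mutant was involved. The other groups held abscisic acid (ABA) at 25 µM, salicylic acid (SA) at 300 µM, or ABA with SA or with JA, at 3 h and 24 h, and JA and ethanol were also measured at 3 h. Values are log2 expression after robust multi-array averaging (RMA), and ran between 1.77 and 13.91 over 22746 probe sets on the 26 arrays. A difference of 1 on this scale is a doubling. Separate cultures are not stated for the 2 arrays of a group, so a p-value here speaks only of array-to-array spread, which may be technical. Of 9 markers of other tissues, 8 were not matched by name and only the guard-cell factor FAMA (AT3G24140) was measured, at 3.36 to 3.92 on the 4 arrays, so the labelled cell type was hardly checked.

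Jasmonates are lipid-derived hormones made from plastid fatty acids. Their active conjugate with isoleucine joins the receptor COI1 to JAZ repressors, which are then degraded, and MYC transcription factors are released to act on their targets. The best-known responses are defence against chewing insects and necrotrophic fungi, an induced turnover of the hormone itself, and arrest of growth and cell division. Most genes of this core pathway had no probe set matched by name and were not analysed here: 3 of 21 synthesis genes, 2 of 21 perception and signalling genes, 4 of 10 turnover genes and 5 of 21 defence targets on the lists were measured.

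The 2 JA arrays differed from each other more than the arrays of any other replicate pair. The standard deviation of their difference over all probe sets was 0.735, the highest of 16 replicate pairs, against 0.526 for the 2 ethanol arrays at 24 h. JA replicate 1 lay closest to the first replicate of ABA with JA at 24 h, at a standard deviation of 0.259, the second lowest of all 325 pairs of arrays. Its next neighbours were 3 h arrays, JA replicate 1 at 0.423 and ethanol replicate 1 at 0.430, while the 24 h ethanol arrays stood at 0.917 and 0.882. JA replicate 2 lay closest to JA replicate 2 at 3 h, at 0.594, and to ethanol replicate 2 at 24 h, at 0.608. On an axis that runs from 0, the mean of the SA arrays at 3 h, to 1, the mean of the SA arrays at 24 h, drawn over the 3242 probe sets (14.3%) called between those SA times, the 2 JA arrays of 24 h stood at 0.0831 and 0.658 and the 2 ethanol arrays of 24 h at 0.901 and 0.970. The JA arrays of 3 h stood at 0.0613 and 0.274, and the ethanol arrays of 3 h at 0.0793 and 0.148. Thus by this measure JA replicate 1 was placed among the 3 h arrays of JA and ethanol. JA replicate 2 lay between the 2 times, and the ethanol arrays of 24 h near the 24 h end. The axis did not order every group by time. Arrays of ABA alone stood at 0.463 to 0.579 at 3 h and at 0.392 to 0.491 at 24 h. At 24 h ABA with JA stood at 0.100 and 0.326, and ABA with SA at 0.634 and 0.723. Whether the place of the JA arrays reflects the treatment, the state of the culture or the handling of an array was not tested. Genes below are mostly given with both JA arrays, but with the 3 h ethanol arrays only for some. A fall or rise given without 3 h values may therefore not hold against ethanol at 3 h. Called genes whose sign turned against the 3 h ethanol arrays are listed under the dependence on the processing.

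**Figure D1:**
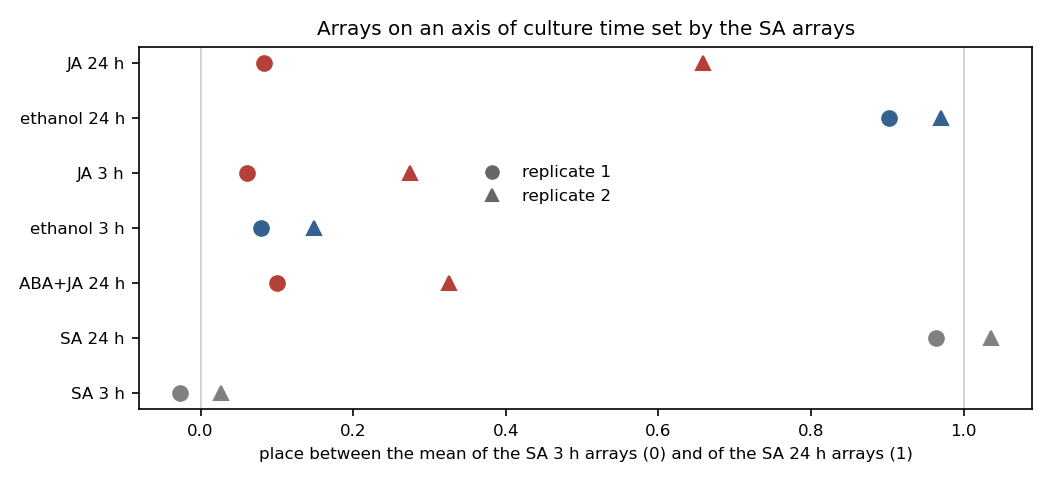
Place of each array (circle, replicate 1; triangle, replicate 2) between the mean of the SA arrays at 3 h (0) and at 24 h (1), a unitless scale over 3242 probe sets. JA replicate 1 at 24 h (0.0831) sits among the 3 h arrays of JA and ethanol, JA replicate 2 at 0.658, and the 24 h ethanol arrays at 0.901 and 0.970.

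With JA at 24 h, 395 probe sets were called higher than with ethanol (1.74% of those tested) and 715 lower (3.14%), at an adjusted p under 0.05 in limma fitted to all arrays, which share 1 estimate of the spread. These counts rest on that fit: they were 186 higher and 374 lower with the 24 h arrays alone, 245 and 346 with array weights, and 0 and 0 on the 4 arrays compared, where limma's lowest adjusted p was 0.093 and 2918 probe sets had an unadjusted p under 0.05. They held 197 and 423 named genes, and 276 of the higher and 546 of the lower probe sets differed at least 2-fold. On all 1110 of them (4.88%) both JA arrays lay beyond both ethanol arrays of 24 h, which held on the higher side for 28.1% and on the lower side for 21.9% of all probe sets tested. The calls use these same 4 arrays, so this separation largely follows from the calling and is no evidence that the arrays agree. The genes ranked by size were also required to meet it. Groups said below not to overlap at a called gene therefore add no support. The JA arrays were within 1 log2 unit of each other at 295 of the 395 and 595 of the 715 called probe sets, against 88.6% of all probe sets. JA replicate 1 was further from the ethanol mean than replicate 2 at 254 of the 395 and 561 of the 715. Its absence left 166 probe sets called higher (0.73%) and 105 lower (0.462%), of which 123 and 94 were among those called with both arrays, and the absence of JA replicate 2 gave 894 (3.93%) and 1315 (5.78%). Without ethanol replicate 1 the counts were 128 (0.563%) and 156 (0.686%), and without ethanol replicate 2 they were 192 (0.844%) and 346 (1.52%). In these fits the lone array is assumed to vary like those of the other groups. The fit to all arrays makes the same assumption for the JA pair, although it was the most unlike of the 16 replicate pairs. Standard errors and p-values for JA may therefore be too small throughout. Of the 15 named genes with the strongest rise on both JA arrays 11 stayed called whichever of the 4 arrays was left out, and of the 15 with the strongest fall 6 did.

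**Figure D2:**
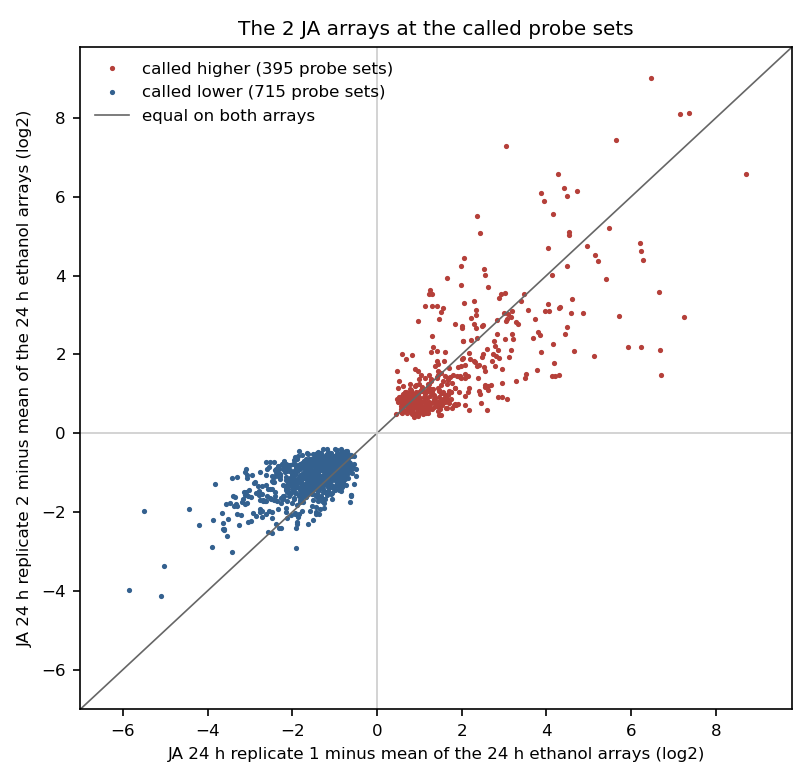
Difference of JA replicate 1 (x axis) and JA replicate 2 (y axis) from the mean of the 24 h ethanol arrays, both in log2 units, for the 395 probe sets called higher (red) and the 715 called lower (blue). No called probe set has the 2 JA arrays on opposite sides of 0, and most blue points lie above the line of equal change as replicate 1 was lower than replicate 2 at 561 of the 715.

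The higher and the lower calls differed in where the 3 h ethanol arrays lay. Both JA arrays stood above all 4 ethanol arrays of 3 h and 24 h at 198 of the 395 higher probe sets (50.1%). They stood below all 4 at 147 of the 715 lower ones (20.6%). Every call already met the 24 h part of this condition, so the shares over all probe sets (9.57% and 5.53%) are no fair base. Of all probe sets with both JA arrays above both 24 h ethanol arrays, 2177 of 6386 were above all 4. On the lower side it was 1257 of 4992, so the lower calls were not enriched for this. Set against the 3 h ethanol arrays, JA at 24 h gave 53 probe sets called higher (0.233%) and 12 lower (0.0528%), 65 in all (0.286%), and 49 of the 395 and 3 of the 715 were called the same way there, both comparisons using the same JA arrays. The SA arrays share no sample with either group, but their difference between the 2 times may also hold a changing response to SA. Replicate 1 minus replicate 2 correlated at 0.70 between ethanol and SA at 24 h, so these arrays may not be fully independent. Of the 395 probe sets higher with JA, 185 were called lower and 3 higher in SA cells at 24 h than at 3 h, where 4.82% and 9.43% of all probe sets were called. Of the 715 lower with JA, 507 were called higher and 1 lower in that comparison. The median difference of 24 h minus 3 h in SA cells was -0.75 over the 395 and 1.31 over the 715, beside -0.06 over all probe sets. Genes are therefore described below in 2 kinds, those that exceed the ethanol arrays of both times and those that do not. All gene lists, also those not marked below, were written with earlier results of these data known. Every count of list members is therefore descriptive, and stands beside 1.74% of all probe sets called higher and 3.14% called lower.

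**Figure D3:**
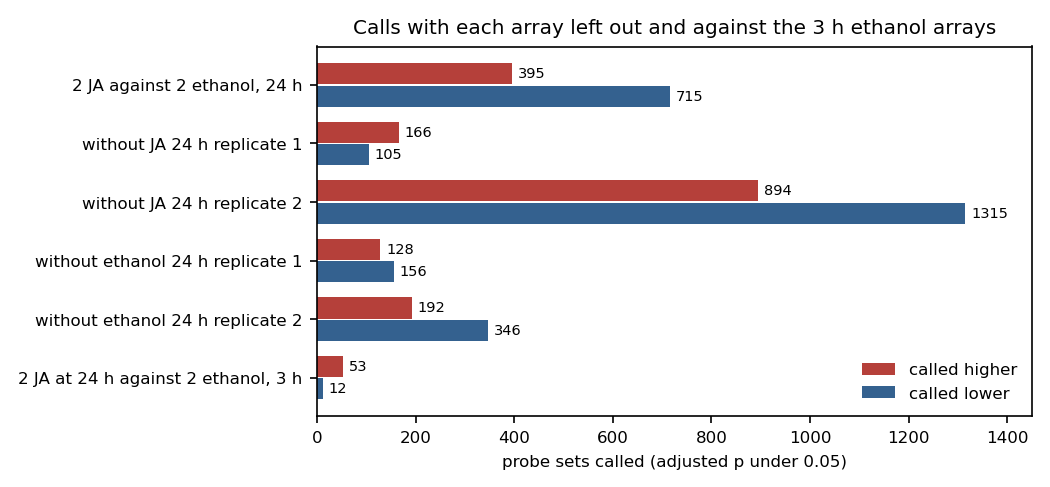
Number of probe sets called at an adjusted p under 0.05 (x axis) for JA against ethanol at 24 h, with each array left out in turn, and against the 3 h ethanol arrays. Counts with JA are 395 higher and 715 lower, 166 and 105 without JA replicate 1, and 53 and 12 against ethanol at 3 h.

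Jasmonate oxygenase genes, a part of jasmonate turnover, rose. The 4 measured genes of the turnover list were all of this family. Of these 3 rose and none fell, where 1.74% of all probe sets were called higher and 3.14% lower. Their median difference was 4.24, against 0.06 over all probe sets. The other listed turnover genes, CYP94B1, CYP94B3, CYP94C1, IAR3, ILL6 and ST2A, were not measured. JRG21 (AT3G55970), AT5G05600 and AT2G38240 encode jasmonate oxygenases, which hydroxylate free jasmonic acid and so take it out of the pathway. JRG21 read 11.71 and 9.58 on the JA arrays and 2.98 and 3.03 on the ethanol arrays, a difference of 7.64 ± 0.48 (SE), or 199-fold (adjusted p = 9.18e-08). AT5G05600 read 9.62 and 8.23 with JA and 3.32 and 3.49 with ethanol, a difference of 5.52 ± 0.43 (adjusted p = 9.95e-07). For AT2G38240 the JA arrays read 7.96 and 6.15 and the ethanol arrays 4.04 and 4.12, which gives 2.97 ± 0.36 (adjusted p = 0.000134). At all 3 genes JA replicate 1 was higher than replicate 2, both lay above the ethanol arrays of both times, and all 3 stayed called without JA replicate 1 (adjusted p 2.28e-07, 1.97e-05 and 0.000166). The fourth oxygenase, AT3G11180, read 3.09 and 3.12 with JA and 2.58 and 3.29 with ethanol, near the low end of the scale (adjusted p = 0.706). AT1G06620, which encodes an oxygenase of the same broad 2-oxoglutarate-dependent class, read 7.23 and 7.73 with JA and 2.76 and 2.63 with ethanol, a difference of 4.78 ± 0.33 (adjusted p = 2.59e-07). Here the 2 JA arrays were within 1 unit of each other and the groups did not overlap.

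At 3 h the oxygenases had already been high with JA. JRG21 read 11.98 and 11.16 in JA cells and 3.09 and 2.89 in ethanol cells at 3 h, and AT5G05600 read 10.76 and 9.73 in JA cells and 4.56 and 4.29 in ethanol cells. AT2G38240 was the one whose response had shrunk: it read 11.19 and 11.05 in JA cells at 3 h, above both JA arrays of 24 h, and the response at 24 h minus that at 3 h was -3.92 ± 0.51 (adjusted p = 0.00591). For JRG21 that difference was -0.94 ± 0.68 (adjusted p = 0.596) and for AT5G05600 -0.30 ± 0.61 (adjusted p = 0.877), so neither passed the test.

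**Figure D4:**
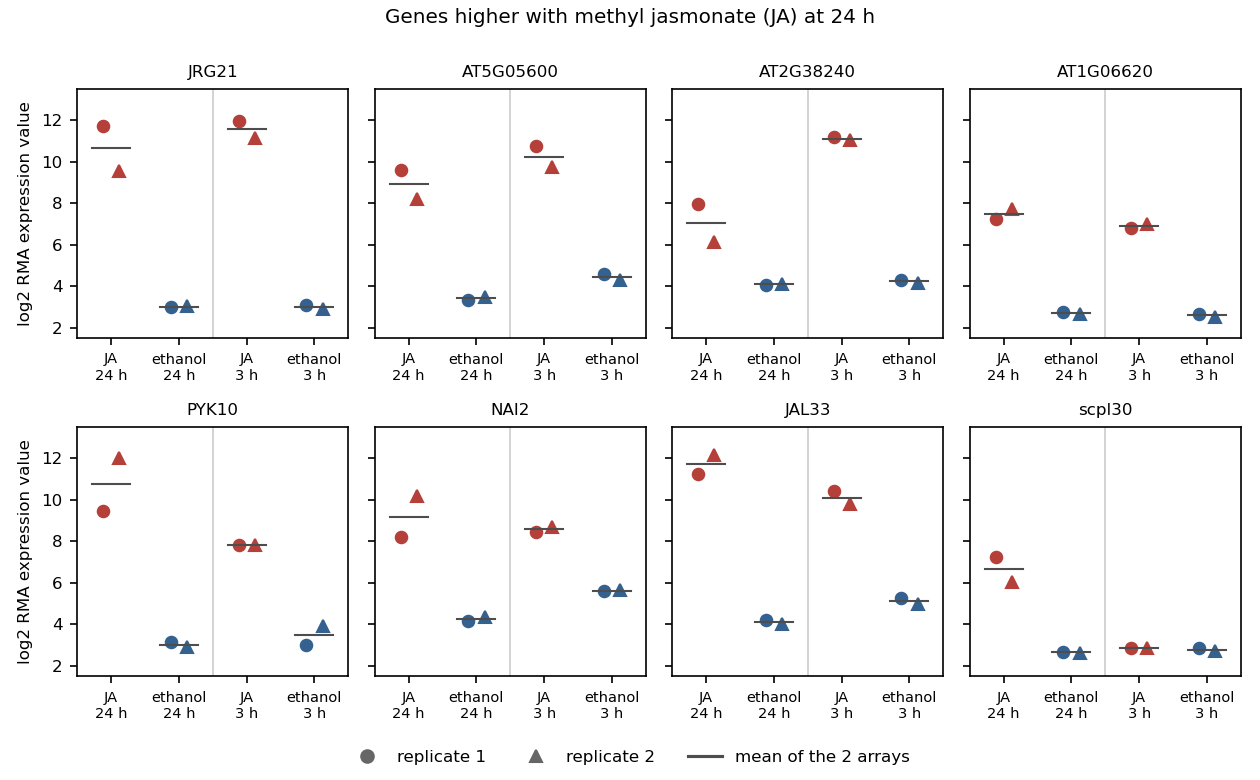
log2 RMA values (y axis) of 8 genes higher with JA at 24 h, on each array (circle, replicate 1; triangle, replicate 2; line, mean of the 2) of JA and ethanol cells at 24 h and at 3 h. In every panel both 24 h JA arrays lie above all 4 ethanol arrays. JA replicate 1 is the higher of the 24 h pair for JRG21, AT5G05600, AT2G38240 and scpl30, and the lower for PYK10, NAI2, JAL33 and AT1G06620.

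Endoplasmic reticulum (ER) bodies are storage compartments of the cabbage family that hold a beta-glucosidase, which meets its substrates when tissue is crushed. Of 7 measured genes of ER bodies and their lectins, 4 rose and none fell (1.74% and 3.14% of all probe sets), with a median difference of 3.50. PYK10 (AT3G09260), the main beta-glucosidase of these bodies, read 9.47 and 12.02 with JA and 3.13 and 2.89 with ethanol, a difference of 7.74 ± 0.78 or 213-fold (adjusted p = 1.66e-05). NAI2 (AT3G15950), which is needed for the bodies to form, read 8.21 and 10.17 on the JA arrays and 4.16 and 4.36 on the ethanol arrays, a difference of 4.93 ± 0.78 (adjusted p = 0.00146). JAL33 (AT3G16450) and JAL34 (AT3G16460) are jacalin-related lectins of the group that binds PYK10. JAL33 read 11.26 and 12.19 with JA and 4.22 and 3.99 with ethanol, a difference of 7.62 ± 0.57 (adjusted p = 6.10e-07), and JAL34 read 11.14 and 11.19 with JA and 7.19 and 8.13 with ethanol, a difference of 3.50 ± 0.37 (adjusted p = 3.04e-05). In all 4 genes JA replicate 2 was the higher of the pair, by a wide margin for PYK10 and NAI2 and hardly for JAL34, and in none did the groups overlap.

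The 3 other genes of this list did not pass the test. NAI1 (AT2G22770), the bHLH factor that drives ER body genes, read 3.26 and 3.69 with JA and 2.85 and 2.57 with ethanol (adjusted p = 0.483). The lectin gene JAL22 (AT2G39310) read 3.15 and 5.39 with JA and 2.77 and 2.46 with ethanol (adjusted p = 0.474), so replicate 2 was the array that stood apart. JAL23 (AT2G39330) read 2.82 and 2.93 with JA and 2.81 and 2.80 with ethanol, nearly equal on all 4 arrays. NAI2 is also less far from the 3 h ethanol arrays, which read 5.62 and 5.63 (adjusted p = 0.0728 against them), whereas PYK10, JAL33 and JAL34 were called against those arrays too. On the other 20 beta-glucosidases of a list of 21, drawn up after the values were seen, 1 more gene rose: BGLU16 (AT3G60130) read 9.03 and 7.96 with JA and 6.17 and 6.34 with ethanol, a difference of 2.24 ± 0.45 (adjusted p = 0.00871, and 0.509 against ethanol at 3 h). When 1 array was left out the call was lost for BGLU16 (adjusted p 0.131 without JA replicate 1, 0.0764 without ethanol replicate 1).

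The order of the JA arrays differed between genes. JRG21, AT5G05600 and AT2G38240 were highest on the 3 h JA arrays, lower on JA replicate 1 of 24 h and lowest on replicate 2, apart from JA replicate 2 at 3 h for JRG21, which at 11.16 lay below JA replicate 1 of 24 h. PYK10 and JAL33 had the reverse order, with PYK10 at 7.81 and 7.80 at 3 h and 9.47 and 12.02 at 24 h, but JAL34 did not, at 11.78 and 11.11 at 3 h and 11.14 and 11.19 at 24 h. At PYK10, JAL33, AT2G38240 and AT5G05600 JA replicate 1 of 24 h lay outside the range of the 2 JA arrays of 3 h. At JRG21 and JAL34 it lay inside that range, and over all probe sets it stood near those arrays.

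Protease inhibitors, which block the digestive enzymes of insects, are among the known jasmonate-induced defences. A neighbouring group of trypsin inhibitor-like genes on chromosome 2 and one of aspartyl proteases on chromosome 5 were listed after their values were seen, so their counts are descriptive. The separate protease inhibitor family list had 1 measured gene, the cystatin CYS1 (AT5G12140), which read 8.15 and 9.71 with JA and 9.20 and 8.88 with ethanol and was not called (adjusted p = 0.92). Of 4 measured inhibitor-like genes 2 rose: AT2G43530 read 10.88 and 11.41 with JA and 8.13 and 7.57 with ethanol, a difference of 3.30 ± 0.38 (adjusted p = 7.96e-05), and AT2G43535 read 9.42 and 11.66 with JA and 5.53 and 5.58 with ethanol, a difference of 4.99 ± 0.71 (adjusted p = 0.000603). AT2G43535 was also high on the 3 h ethanol arrays, at 7.78 and 9.45, so that JA replicate 1 lay between them. All 3 aspartyl protease genes rose. Beside both of these lists, 1.74% of all probe sets were called higher. AT5G19110 read 8.60 and 9.17 with JA and 4.19 and 3.96 with ethanol, a difference of 4.81 ± 0.56 (adjusted p = 9.18e-05), and AT5G19100 read 6.48 and 7.94 with JA and 3.87 and 4.0 with ethanol, a difference of 3.27 ± 0.58 (adjusted p = 0.00357). The third, AT5G19120, read 11.40 and 7.65 with JA and 4.91 and 6.04 with ethanol, with the 2 JA arrays far apart. Its 3 h ethanol arrays read 11.55 and 10.70, and its adjusted p of 0.0468 became 0.436 without JA replicate 1. With 1 array left out at a time the call was lost for AT5G19120 (adjusted p 0.274 without ethanol replicate 1, 0.0971 without ethanol replicate 2).

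Several other genes rose on both JA arrays above the ethanol arrays of both times. AT4G23670, of the major latex protein family, read 6.98 and 8.40 with JA and 2.18 and 2.33 with ethanol, a difference of 5.43 ± 1.17 (adjusted p = 0.0133, and 0.0566 against ethanol at 3 h). scpl30 (AT4G15100), a serine carboxypeptidase-like gene, read 7.24 and 6.05 with JA and 2.68 and 2.60 with ethanol, a difference of 4.0 ± 0.84 (adjusted p = 0.0118, and 0.0724 against ethanol at 3 h). Both JA arrays were above all 4 ethanol arrays although scpl30 read only 2.88 and 2.84 on the JA arrays of 3 h, and it was the only gene called among 29 measured members of its family, a list drawn up after the values were seen. Its spread across the series was wide, with 7.21 and 2.46 on the 2 arrays of ABA with JA at 24 h, so ABA with JA was high on 1 array of 2. With 1 array left out the adjusted p was above the threshold for scpl30 (adjusted p 0.13 without JA replicate 1, 0.0764 without ethanol replicate 1, 0.0628 without ethanol replicate 2) and AT4G23670 (adjusted p 0.0917 without ethanol replicate 1, 0.0623 without ethanol replicate 2).

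TBL37 (AT2G34070), of a family that acetylates cell wall polymers, read 7.59 and 7.41 with JA and 4.87 and 4.16 with ethanol, a difference of 2.98 ± 0.31 (adjusted p = 2.05e-05), and the other 21 members measured were not called. AT2G39420, a monoacylglycerol lipase-family gene, read 8.19 and 8.07 with JA and 6.02 and 6.02 with ethanol, a difference of 2.11 ± 0.37 (adjusted p = 0.00357). At both genes the 2 JA arrays were nearly equal and neither group overlapped the other. Of the 15 lipases of that family, listed like the TBL genes after the values were seen, 2 rose and 1 fell (1.74% and 3.14% of all probe sets). The second riser, AT3G62860, read 6.73 and 6.23 with JA and 4.10 and 4.34 with ethanol, and the member that fell, AT5G19290, read 5.67 and 6.58 with JA and 8.04 and 7.52 with ethanol (adjusted p = 0.0137). When 1 array was left out the call was lost for AT5G19290 (adjusted p 0.185 without JA replicate 1, 0.151 without ethanol replicate 1).

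The size rule also named a pair of genes that rose on both arrays. AT1G23850 read 7.73 and 6.88 with JA and 3.79 and 3.75 with ethanol, and AT3G20370, of the TRAF-like family, read 6.37 and 10.62 with JA and 3.15 and 3.50 with ethanol. AT3G20370 had the widest gap between the JA arrays among called named genes (adjusted p = 0.0432), with replicate 2 far higher, while the 2 arrays of AT1G23850 were within 1 unit (adjusted p = 0.00378). Against ethanol at 3 h neither was called (adjusted p = 0.0654 for AT1G23850 and 0.274 for AT3G20370). GRX480 (AT1G28480), a glutaredoxin best known as an SA-induced gene, read 5.44 and 6.38 with JA and 3.75 and 3.43 with ethanol, a difference of 2.31 ± 0.46 (adjusted p = 0.00876). SA cells of 24 h read 6.38 and 5.51, a range that overlapped the JA arrays, and JA minus SA was -0.04 ± 0.46 (adjusted p = 0.973). With 1 array left out the adjusted p was above the threshold for AT1G23850 (adjusted p 0.0626 without JA replicate 1), AT3G20370 (adjusted p 0.246 without JA replicate 2, 0.202 without ethanol replicate 1, 0.13 without ethanol replicate 2) and GRX480 (adjusted p 0.0639 without ethanol replicate 2).

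The classical defence targets, synthesis genes and signalling factors that could be measured gave no calls, on lists of 5, 3 and 2 measured genes beside 4.88% of all probe sets called. None of the 5 defence targets passed the test and their median difference was 0.24: the defensin gene PDF1.2 (AT5G44420) read 3.74 and 3.64 with JA and 3.96 and 3.83 with ethanol, and the thionin gene THI2.1 (AT1G72260) read 3.59 and 3.05 with JA and 3.32 and 3.11 with ethanol. Another thionin gene, THI2.2 (AT5G36910), read 4.85 and 4.76 with JA and 4.12 and 4.22 with ethanol, above both ethanol arrays but short of the test (adjusted p = 0.138). PDF1.2 and THI2.1 were low on all 4 arrays. Of the synthesis genes, AIM1 (AT4G29010), a peroxisomal beta-oxidation enzyme, read 8.56 and 8.68 with JA and 8.01 and 8.03 with ethanol, a difference of 0.60 ± 0.22 (adjusted p = 0.127). OPCL1 (AT1G20510), which activates jasmonate precursors for that step, read 6.61 and 7.76 with JA and 7.59 and 6.65 with ethanol, and JMT (AT1G19640), which methylates jasmonic acid, read 2.93 and 2.86 with JA and 2.41 and 2.82 with ethanol. Of the MYC factors, MYC3 (AT5G46760) read 8.08 and 6.84 with JA and 6.87 and 6.48 with ethanol (adjusted p = 0.218), and MYC4 (AT4G17880) read 4.45 and 5.60 with JA and 5.09 and 6.04 with ethanol (adjusted p = 0.48). The JA and ethanol arrays overlapped for OPCL1 and MYC4.

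The counts for enzymes of secondary metabolism are read against the 4.88% of all probe sets called in either direction, and for families this small they do not set them apart from it. Of 43 UDP-glycosyltransferases, which attach sugars to small molecules, 2 rose, and of 24 cytochrome P450s, 12 glutathione S-transferases and 5 class III peroxidases none was called. UGT87A2 (AT2G30140) read 8.44 and 7.76 with JA and 6.75 and 6.77 with ethanol (adjusted p = 0.0377), and UGT71B5 (AT4G15280) read 5.95 and 5.13 with JA and 4.08 and 4.62 with ethanol (adjusted p = 0.0429). Both calls were lost with 1 array left out, those of UGT87A2 (adjusted p 0.294 without JA replicate 1, 0.176 without ethanol replicate 1, 0.129 without ethanol replicate 2) and UGT71B5 (adjusted p 0.355 without JA replicate 1, 0.309 without ethanol replicate 1, 0.0628 without ethanol replicate 2). None of 3 genes of glucosinolate and tryptophan synthesis and none of 3 of the phenylpropanoid and anthocyanin pathways passed, with medians of 0.32 and 0.37. DFR (AT5G42800), an anthocyanin enzyme, read 3.93 and 4.06 with JA and 3.63 and 3.62 with ethanol (adjusted p = 0.359), and UGT74B1 (AT1G24100), a late enzyme of glucosinolate synthesis, read 6.90 and 7.48 with JA and 6.43 and 6.19 with ethanol (adjusted p = 0.104). At DFR and UGT74B1 both JA arrays were above both ethanol arrays.

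A second kind of raised gene was high with JA at 24 h relative to ethanol at 24 h but did not exceed the ethanol arrays of both times. OSM34 (AT4G11650), an osmotin-like protein of the pathogenesis-related thaumatin family, read 10.70 and 7.62 with JA and 3.81 and 4.28 with ethanol, a difference of 5.12 ± 0.78 (adjusted p = 0.00108). Its 3 h arrays read 10.59 and 8.72 with JA and 11.07 and 9.99 with ethanol, so JA replicate 1 of 24 h lay between the 2 ethanol arrays of 3 h and replicate 2 below both. AT3G43670, a copper amine oxidase, read 7.25 and 5.89 with JA and 2.97 and 3.83 with ethanol at 24 h, against 7.41 and 6.90 with ethanol at 3 h. PMEPCRF (AT5G53370), a pectin methylesterase, read 9.14 and 8.13 with JA and 7.05 and 6.91 with ethanol at 24 h, and 9.72 and 9.95 with ethanol at 3 h. Each of these 3 genes had fallen in SA cells between 3 h and 24 h as well, by 4.39, 3.75 and 2.16 on the log2 scale. A pair of autophagy genes were of the same kind, on a list of 8 drawn up after the values were seen: ATG8F (AT4G16520), which encodes a protein of the growing autophagosome membrane, read 10.84 and 10.08 with JA and 9.43 and 9.35 with ethanol at 24 h, and 10.64 and 10.88 with ethanol at 3 h. ATG8D (AT2G05630) read 7.14 and 6.97 with JA and 6.11 and 6.20 with ethanol at 24 h, and 7.0 and 7.49 with ethanol at 3 h. Calls were lost with 1 array left out for PMEPCRF (adjusted p 0.0784 without JA replicate 1), ATG8F (adjusted p 0.325 without JA replicate 1, 0.147 without ethanol replicate 1, 0.137 without ethanol replicate 2) and ATG8D (adjusted p 0.179 without JA replicate 1, 0.163 without ethanol replicate 1, 0.0868 without ethanol replicate 2).

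Of 6 measured mitosis genes 4 fell with JA and none rose, with a median difference of -2.18. Of 43 kinesin probe sets (42 genes, listed after the values were seen) 19 fell and none rose, with a median of -1.24. Of all probe sets 3.14% were called lower and 1.74% higher. Of the kinesin probe sets, 4 had both JA arrays above the ethanol mean. The DNA replication list had 1 measured gene, PRL (AT4G02060), a subunit of the replicative helicase, which read 5.32 and 6.92 with JA and 6.36 and 6.90 with ethanol and was not called (adjusted p = 0.644). In RNA from a whole culture, fewer dividing cells and less RNA per cell cannot be told apart. TOPII (AT3G23890), the topoisomerase that untangles sister chromatids, read 3.95 and 5.83 with JA and 7.99 and 8.32 with ethanol, a difference of -3.26 ± 0.70 (adjusted p = 0.0127). KINESIN-12B (AT3G23670), a motor of the phragmoplast that builds the new cell wall, read 3.53 and 4.03 with JA and 5.60 and 6.0 with ethanol, a difference of -2.02 ± 0.27 (adjusted p = 0.000383). AUR2 (AT2G25880), an aurora kinase, read 4.27 and 5.91 with JA and 7.28 and 7.07 with ethanol (adjusted p = 0.0177), and 3xHMG-box1 (AT4G11080), a protein of mitotic chromosomes, read 2.87 and 5.16 with JA and 6.18 and 6.42 with ethanol (adjusted p = 0.0225). Replicate 1 was the lower JA array at each of these 4 genes, and none of the JA arrays reached the ethanol arrays. Leaving out 1 array took the call from TOPII (adjusted p 0.178 without JA replicate 1, 0.0685 without ethanol replicate 1, 0.0756 without ethanol replicate 2), AUR2 (adjusted p 0.243 without JA replicate 1, 0.133 without ethanol replicate 1, 0.0662 without ethanol replicate 2) and 3xHMG-box1 (adjusted p 0.291 without JA replicate 1, 0.106 without ethanol replicate 1, 0.11 without ethanol replicate 2). KINESIN-12B stayed called whichever array was left out.

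The other 2 mitosis genes had the same order without passing the test. AUR1 (AT4G32830) read 5.81 and 7.65 with JA and 8.89 and 8.59 with ethanol (adjusted p = 0.177), and 3xHMG-box2 (AT4G23800) read 4.90 and 7.34 with JA and 9.22 and 9.25 with ethanol (adjusted p = 0.0572). The median of the 6 genes was -3.18 on JA replicate 1 and -1.52 on replicate 2, and 1 of the 4 calls held without replicate 1. Among kinesins AT3G44050 read 2.47 and 3.66 with JA and 5.76 and 6.42 with ethanol, a difference of -3.02 ± 0.43 (adjusted p = 0.000606), and AT3G10310 read 3.13 and 4.47 with JA and 6.52 and 6.78 with ethanol, a difference of -2.85 ± 0.40 (adjusted p = 0.000487). AT2G37420 read 2.26 and 3.18 with JA and 4.93 and 5.46 with ethanol, a difference of -2.48 ± 0.27 (adjusted p = 4.50e-05). Of the 19 kinesin calls 8 held without JA replicate 1.

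These genes were low in ethanol cells at 3 h. TOPII read 4.01 and 5.90 there and KINESIN-12B 3.69 and 3.91, and the median of the 6 mitosis genes in JA cells at 24 h minus ethanol cells at 3 h was -0.15. In SA cells the same 6 genes were higher at 24 h than at 3 h by a median of 2.72. The kinesins gave a median of -0.02 against ethanol at 3 h and of 0.81 between the times in SA cells, and both JA arrays were below all 4 ethanol arrays for 4 of the 19 that fell. By these medians the mean JA values of 24 h lay below the 24 h ethanol cells, in which the genes were high, and close to the 3 h ones. The means join 2 unlike JA arrays. Against ethanol at 24 h the mitosis median was -3.18 on JA replicate 1 and -1.52 on replicate 2. Ethanol cells at 24 h exceeded those at 3 h by a median of 2.55, which lies between these 2 distances. By the mean of the JA arrays, AUR2 and 3xHMG-box1 were above ethanol at 3 h.

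**Figure D5:**
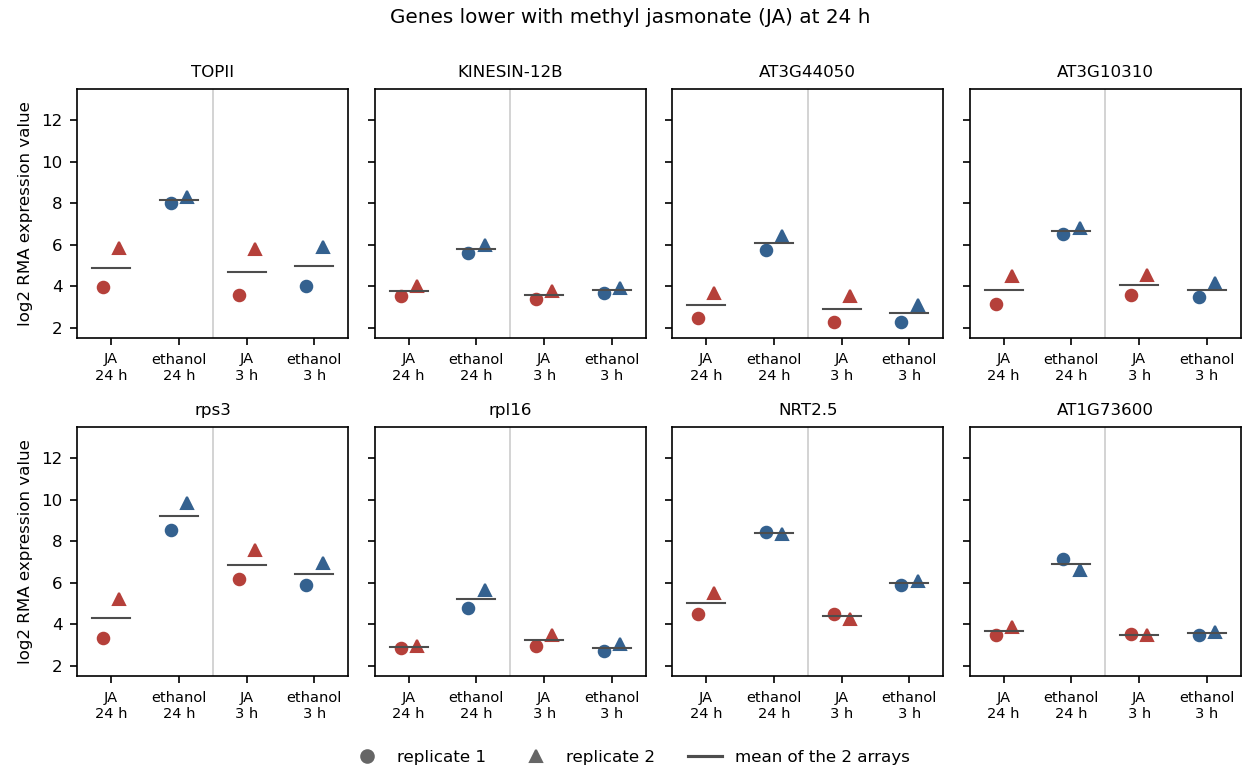
log2 RMA values (y axis) of 8 genes lower with JA at 24 h, on each array (circle, replicate 1; triangle, replicate 2; line, mean of the 2) of JA and ethanol cells at 24 h and at 3 h. The 24 h ethanol arrays are the high pair in every panel, and for TOPII, KINESIN-12B, AT3G44050, AT3G10310 and AT1G73600 the 24 h JA arrays lie near the 3 h ethanol arrays.

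Of 15 plastid-encoded ribosomal protein genes, listed after the values were seen, 4 fell with JA and none rose (3.14% and 1.74% of all probe sets). Their median difference was -1.12. rps3 (ArthCp061) read 3.35 and 5.24 with JA and 8.57 and 9.86 with ethanol, a difference of -4.92 ± 0.96 (adjusted p = 0.00726), and rpl22 (ArthCp062) read 3.26 and 4.23 with JA and 7.39 and 9.32 with ethanol, a difference of -4.61 ± 1.15 (adjusted p = 0.0294). rpl16 (ArthCp060) read 2.84 and 2.93 with JA and 4.80 and 5.65 with ethanol, and rpl36 (ArthCp057) read 4.89 and 5.86 with JA and 7.24 and 7.91 with ethanol. The 4 called genes lie close together by locus number, from ArthCp057 to ArthCp062, so their falls may not be separate events. rpl14 (ArthCp059), listed in that stretch, was not called, and no listed gene outside it was. For rps3, rpl22 and rpl36 both JA arrays were also below the 3 h ethanol arrays, which for rps3 read 5.91 and 6.95. None of the 4 was called without JA replicate 1 (adjusted p between 0.11 and 0.255). Calls were lost with an ethanol array left out for rps3 (adjusted p 0.0703 without ethanol replicate 2), rpl22 (adjusted p 0.0633 without ethanol replicate 1, 0.195 without ethanol replicate 2), rpl16 (adjusted p 0.0705 without ethanol replicate 1, 0.18 without ethanol replicate 2) and rpl36 (adjusted p 0.0892 without ethanol replicate 1, 0.184 without ethanol replicate 2).

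Other lowered genes concerned nitrate, lipids and the cell wall. NRT2.5 (AT1G12940), a high-affinity nitrate transporter of nitrogen-starved plants, read 4.50 and 5.50 with JA and 8.45 and 8.34 with ethanol, a difference of -3.39 ± 0.57 (adjusted p = 0.00252). Both JA arrays were also below the 3 h ethanol arrays, at 5.90 and 6.09. AT1G73600, a phosphoethanolamine methyltransferase of phosphatidylcholine synthesis, read 3.47 and 3.86 with JA and 7.15 and 6.63 with ethanol, a difference of -3.22 ± 0.47 (adjusted p = 0.000803), and 3.49 and 3.62 with ethanol at 3 h. EXPB3 (AT4G28250), a beta-expansin that loosens cell walls, read 3.18 and 5.69 with JA and 7.50 and 7.73 with ethanol (adjusted p = 0.00878). It was the only call among 26 expansins and xyloglucan endotransglucosylases, whose median was 0.08. Leaving out 1 array took the call from EXPB3 (adjusted p 0.142 without JA replicate 1, 0.0574 without ethanol replicate 1, 0.0553 without ethanol replicate 2). NRT2.5 and AT1G73600 kept theirs.

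For several of the lowered genes one ethanol array carried much of the difference. ATPMEPCRB (AT4G02330), a pectin methylesterase, read 2.57 and 3.50 with JA and 7.45 and 4.21 with ethanol (adjusted p = 0.0401), and AT4G39830, an ascorbate oxidase-like gene, read 3.61 and 3.52 with JA and 7.09 and 4.75 with ethanol (adjusted p = 0.0133). AT5G48570, an FKBP-type folding enzyme, read 3.69 and 5.35 with JA and 10.09 and 7.33 with ethanol (adjusted p = 0.0391). In each of the 3 ethanol replicate 1 was far above ethanol replicate 2, and all 3 lost the call without that array. The other genes named by the size rule were AT4G31000 at 3.07 and 4.02 with JA and 7.40 and 5.85 with ethanol, AT3G05320 at 3.33 and 3.27 with JA and 6.82 and 4.80 with ethanol, AT5G45700 at 2.46 and 3.66 with JA and 6.50 and 5.68 with ethanol, and the RING-type gene AT3G27330 at 2.95 and 4.29 with JA and 6.32 and 6.83 with ethanol. The ethanol arrays were far apart for AT4G31000 and AT3G05320 and close for AT5G45700 and AT3G27330. Calls were lost with 1 array left out for ATPMEPCRB (adjusted p 0.255 without JA replicate 1, 0.452 without ethanol replicate 1), AT4G39830 (adjusted p 0.0868 without JA replicate 1, 0.182 without ethanol replicate 1), AT5G48570 (adjusted p 0.271 without JA replicate 1, 0.349 without ethanol replicate 1), AT3G05320 (adjusted p 0.108 without JA replicate 1, 0.258 without ethanol replicate 1) and AT3G27330 (adjusted p 0.123 without JA replicate 1, 0.0639 without ethanol replicate 2).

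The JA arrays disagreed at some of the called genes by more than 3 log2 units. AT1G04680, a pectate lyase-like gene, read 3.84 and 7.37 with JA and 9.43 and 9.25 with ethanol (adjusted p = 0.048, and 0.447 without JA replicate 1). AT2G32150 read 8.61 and 5.45 with JA and 4.12 and 2.85 with ethanol (adjusted p = 0.0367, and 0.374 without JA replicate 1). At both genes replicate 1 was the JA array nearer the 3 h ethanol arrays, which read 5.08 and 4.79 for AT1G04680 and 8.37 and 7.18 for AT2G32150. OSM34, AT5G19120 and AT3G20370, given above, were the other 3 with the widest gaps. An ethanol array left out also took the call from AT1G04680 (adjusted p 0.214 without ethanol replicate 1, 0.147 without ethanol replicate 2) and AT2G32150 (adjusted p 0.0875 without ethanol replicate 1, 0.206 without ethanol replicate 2).

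The response at 24 h was then compared with that at 3 h, as JA minus ethanol at 24 h minus the same at 3 h. The test called 22 probe sets higher (0.0967%) and 71 lower (0.312%), 93 in all (0.409%), and 2996 (13.2%) had an unadjusted p under 0.05. Among called genes the 5 with the highest positive difference were OSM34 at 5.99 ± 1.11 (adjusted p = 0.0236), AT3G43670 at 3.86 ± 0.63, PMEPCRF at 2.72 ± 0.41, AT1G59930 at 2.57 ± 0.47 and AT3G07350 at 2.34 ± 0.48. AT1G59930 was read by a probe set that may match several sequences. None of the 5 was called with JA at 3 h, and all 5 were called lower in ethanol cells at 24 h than at 3 h: AT3G07350 read 7.53 and 6.78 with JA and 4.41 and 4.93 with ethanol at 24 h, and 7.42 and 7.83 with JA and 7.47 and 7.49 with ethanol at 3 h. The 5 called genes with the lowest difference were AT2G38240 (above), the kinesins AT3G44050 at -3.23 ± 0.61, AT3G10310 at -3.11 ± 0.56 and AT2G37420 at -3.02 ± 0.38, and AT1G73600 at -3.16 ± 0.67. For the kinesins and AT1G73600 the ethanol arrays were high only at 24 h. Of the 43 kinesin probe sets 5 had a lower response at 24 h by this test and none a higher one (0.312% and 0.0967% of all probe sets). Leaving out JA replicate 1 of 24 h left 32 calls in all in place of 93, and leaving out JA replicate 2 gave 1165. On the 8 arrays of the comparison alone none was called (0, lowest adjusted p 0.295 in limma, with 2680 at an unadjusted p under 0.05).

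JA was last set against SA at 24 h, which compares 2 hormones at one time. There 445 probe sets were called higher with JA (1.96%) and 860 lower (3.78%), 1305 in all (5.74%), and the comparisons with SA and with ethanol use the same JA arrays. The 5 genes named as highest against SA were picked by the size of this difference among probe sets called in both comparisons. Their wide margins therefore follow from that choice. JAL33 read 11.26 and 12.19 with JA and 4.18 and 3.76 with SA, a difference of 7.75 ± 0.57 (adjusted p = 1.30e-07), and PYK10 read 9.47 and 12.02 with JA and 3.01 and 3.03 with SA, a difference of 7.72 ± 0.78 (adjusted p = 7.93e-06). JRG21 read 2.94 and 3.08 with SA, AT4G23670 1.90 and 2.21 and NAI2 3.78 and 3.55, all near or below their values with ethanol. At these 5 genes the JA arrays were above the SA arrays by wide margins.

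Of the 5 genes named as lowest against SA, 3 read higher with SA than with ethanol. AT5G44400, of the berberine bridge enzyme-like family, read 4.19 and 5.64 with JA and 9.47 and 10.18 with SA, a difference of -4.91 ± 0.56 (adjusted p = 3.27e-05), and 7.96 and 6.80 with ethanol. AT5G48430, an aspartyl protease-family gene, read 4.69 and 4.0 with JA, 9.05 and 7.60 with SA and 6.04 and 6.35 with ethanol, and JA minus SA was -3.97 ± 0.43 (adjusted p = 1.87e-05). AT5G66670 read 3.55 and 3.52 with JA, 6.62 and 6.78 with SA and 5.07 and 4.75 with ethanol. The other 2 of the 5 lowest were rps3 at -5.10 ± 0.96 (adjusted p = 0.0042) and rpl22 at -4.78 ± 1.15 (adjusted p = 0.0199), where SA and ethanol arrays overlapped. Against ethanol, calls were lost with 1 array left out for AT5G44400 (adjusted p 0.221 without JA replicate 1, 0.201 without ethanol replicate 1), AT5G48430 (adjusted p 0.0524 without JA replicate 1, 0.0845 without JA replicate 2, 0.0857 without ethanol replicate 1, 0.117 without ethanol replicate 2) and AT5G66670 (adjusted p 0.0986 without JA replicate 1, 0.151 without ethanol replicate 1). Of 4 measured SA response genes 2 were lower with JA than with SA: AT5G03350, an SA-induced lectin-like gene, read 4.31 and 3.82 with JA, 10.88 and 11.44 with SA and 4.28 and 4.23 with ethanol (adjusted p = 3.83e-09 for JA minus SA), and UGT76B1 (AT3G11340), which glucosylates SA-related compounds, read 5.81 and 5.12 with JA and 10.84 and 11.71 with SA (adjusted p = 2.67e-07). Neither of them was called between JA and ethanol, so the contrast with SA does not show that JA lowered them. WRKY53 (AT4G23810), a factor of senescence and defence, read 6.21 and 6.78 with JA and 11.05 and 8.74 with ethanol, a difference of -3.40 ± 1.19 (adjusted p = 0.111), and 10.57 and 8.52 with SA (adjusted p = 0.153). Neither WRKY53 nor GRX480, given above, was called between JA and SA.

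The remaining lists held 5 to 7 measured genes each, where a share of 4.88%, that of all probe sets, gives less than 1 call, so a count of 0 says little about them. None of 7 WRKY factors, 6 bHLH factors or 5 nuclear photosynthesis genes was called, with median differences of -0.45, 0.12 and 0.24. None of 6 ABA-responsive genes was called either, and their median was 0.25. Some of them were split between the JA arrays: HIS1-3 (AT2G18050), a drought-induced linker histone, read 7.45 and 4.14 with JA and 2.51 and 2.75 with ethanol (adjusted p = 0.0654), and COR47 (AT1G20440), a dehydrin, read 8.60 and 4.28 with JA and 6.91 and 5.24 with ethanol (adjusted p = 0.874). In both genes JA replicate 1 was the high array, and COR47 lay on opposite sides of the ethanol arrays on the 2 JA arrays. The 3 h ethanol arrays read 9.96 and 9.45 for COR47, nearer replicate 1, and 7.20 and 5.25 for HIS1-3, between the 2 JA arrays.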

How the data were processed

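The 26 arrays were 1-colour oligonucleotide arrays of biotin-labelled cRNA from TRIzol-extracted RNA, per the labels' protocols. Per the submitters' processing notes the authors summarised them by RMA, and the deposited values are on the log2 scale. They were used as deposited, with no further filter. Groups follow the source names, which disagree with the titles for 2 pairs of 3 h arrays that hold ABA and enter no comparison here. The array's annotation gave 1 gene for 13436 of the 22746 probe sets, none for 8730, several for 503, and 77 were outside the table; 144 of 13286 genes had more than 1 probe set. limma 3.58.1 in R 4.3.3 fitted 1 mean for each of the 12 groups, with moderated t-statistics and Benjamini-Hochberg adjustment over all probe sets, called at an adjusted p under 0.05. The method was tested on simulated data with independent arrays and the same spread in every group. That test does not cover a JA pair more unlike than the others, or replicates that deviate together. Named genes were the 15 highest and 15 lowest called genes ranked by the JA array nearer the ethanol mean, the 5 highest and 5 lowest in the comparisons with 3 h and with SA, the 5 called genes with the widest JA gap, and members of lists. Members and lists were chosen with earlier results of these data known. Alternatives were other sets of arrays, variance priors, scaling, a filter on dim probe sets, array weights, a replicate block and each array left out. The number of arrays limits the precision.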

Additional observations from a re-analysis of the deposited data

Results flagged for a closer look

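A difference between the JA response at 24 h and that at 3 h passed limma's test at 93 probe sets in the fit to all arrays. On the 8 arrays of the comparison alone 0 passed (lowest adjusted p 0.295, with 2680 at an unadjusted p under 0.05), and with 1 array left out the count lay between 21 and 1165. The named genes among them with a higher response at 24 h were OSM34 (5.99 log2 units), AT3G43670 (3.86), PMEPCRF (2.72), AT1G59930 (2.57), AT3G07350 (2.34) and the lipase-family gene AT3G62860 (2.15). Those with a lower response were the oxygenase AT2G38240 (-3.92), AT1G73600 (-3.16) and the kinesins AT3G44050 (-3.23), AT3G10310 (-3.11), AT2G37420 (-3.02), AT2G22610 (-2.49) and AT4G39050 (-2.43). AT4G39050 read 4.20 and 5.29 with JA and 6.67 and 6.76 with ethanol at 24 h, and 4.91 and 5.19 with JA and 4.65 and 4.53 with ethanol at 3 h. AT2G22610 read 3.74 and 4.49 with JA and 6.17 and 6.19 with ethanol at 24 h, and 3.77 and 4.13 with JA and 3.17 and 3.88 with ethanol at 3 h. AT2G38240 alone of these had JA arrays above the ethanol arrays by a wide margin at both times.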

How the results depend on the processing

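The count of 1110 probe sets for JA against ethanol moved most with the arrays used and with array weights, and by less than 1.5 times with the other choices. It was 1003 with a trended and robust prior, 1066 without the dimmest 25% of probe sets, 963 after quantile scaling, 1269 with the replicate number as a block and 1212 without ABA+JA replicate 1. Quantile scaling gave 451 higher and 512 lower, so 46.8% of calls were higher in place of 35.6%. Array weights gave 245 higher and 346 lower (591), the 24 h arrays alone 186 and 374 (560), and JA replicate 1 left out with ABA+JA replicate 1 243 and 147 (390). In limma on the 4 arrays alone 0 were called higher and 0 lower (0 in all), with 2918 at an unadjusted p under 0.05 and a lowest adjusted p of 0.093. Against ethanol at 3 h the counts were 53 and 12 (65). Leaving out each array gave 128 to 894 higher, 105 to 1315 lower and 271 to 2209 in all. The alternatives with ABA+JA replicate 1 left out or with the 3 h reference were chosen after seeing the data. The cause of these shifts was not tested.

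For the difference from the 3 h response, the count of 93 became 153 with array weights, 145 with the replicate block, and 0 on its 8 arrays alone (2680 at an unadjusted p under 0.05), and 21 to 1165 with an array left out. For JA against SA, the count of 1305 became 735 on the 24 h arrays, 38 on the 4 arrays alone, and 367 to 2236 with an array left out. The labels do not say that a replicate number marks a shared culture, batch or day, so the block was not the reported fit; replicate 1 minus replicate 2 correlated at 0.20 between JA and ethanol at 24 h, and at 0.16 to 0.70 over the 6 pairs of groups checked.

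Of 133 named genes or list members 60 were called, and of these 28 were no longer called without JA replicate 1, 26 without ethanol replicate 1, 21 without ethanol replicate 2 and 2 without JA replicate 2. None changed sign while called in the other alternatives. Against ethanol at 3 h the sign of these log2 differences turned: OSM34 -1.36, AT1G73600 0.11, AT5G45700 0.19, AT3G44050 0.37, rpl16 0.013, AT3G10310 0.0013, AT2G37420 0.17, AT3G43670 -0.59, PMEPCRF -1.20, AT1G59930 -0.51, AT3G07350 -0.32, AT5G44400 0.80, AT5G19120 -1.60, AT1G04680 0.68, AT2G32150 -0.75, 3xHMG-box1 0.55, AUR2 0.39, EXPB3 0.88, AT4G39050 0.15, AT2G22610 0.59, ATG8D -0.19, ATG8F -0.30. A turned sign is not a call, and several of these values were near no change. Over all probe sets, 0 of the 395 higher calls were called lower against ethanol at 3 h. Of the 715 lower calls 1 was called higher there. Called probe sets without a named gene could not be described by function.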

Other observations

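The 49 probe sets called higher against the ethanol arrays of both times held 21 with a named gene, and 47 of the 49 were also called without JA replicate 1. Those named genes not yet described were picked after their values were seen. AT1G52000, a jacalin-related lectin gene, read 6.44 and 5.88 with JA and 3.06 and 3.15 with ethanol (adjusted p = 6.09e-06). AT3G23570, a dienelactone hydrolase-family gene, read 9.31 and 9.78 with JA and 6.94 and 7.09 with ethanol (adjusted p = 0.000352). AT3G51450, a strictosidine synthase-like gene, read 8.20 and 9.82 with JA and 6.42 and 6.85 with ethanol (adjusted p = 0.00846), and AT1G66760, a MATE-type transporter gene, read 6.86 and 6.06 with JA and 3.59 and 3.73 with ethanol (adjusted p = 6.61e-05). AT1G31710, a copper amine oxidase gene, read 4.67 and 6.90 with JA and 3.38 and 3.38 with ethanol (adjusted p = 0.00323), and unlike AT3G43670 of that family it was low on the 3 h ethanol arrays, at 3.70 and 3.45. AT4G13860, a glycine-rich RNA-binding protein gene, read 6.83 and 8.39 with JA and 5.30 and 5.34 with ethanol (adjusted p = 0.00502). AT4G30450, a glycine-rich protein gene, read 6.38 and 5.69 with JA and 4.18 and 4.41 with ethanol, and AT3G50280, of the acyltransferase class, read 6.89 and 6.30 with JA and 5.48 and 4.33 with ethanol (adjusted p = 0.00312 and 0.0154). These 2 were the ones that lost the call without JA replicate 1 (adjusted p 0.0643 and 0.162). JA replicate 2 was the higher array for AT3G23570, AT3G51450, AT1G31710 and AT4G13860, and replicate 1 for AT1G52000, AT1G66760, AT4G30450 and AT3G50280.

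On the lower side 3 probe sets were called against the ethanol arrays of both times, and 1 of them was also called without JA replicate 1. This was AT1G36060, an ERF-family transcription factor gene, which read 7.66 and 6.68 with JA and 9.63 and 9.53 with ethanol at 24 h, and 9.27 and 9.32 with ethanol at 3 h, a difference of -2.41 ± 0.34 at 24 h (adjusted p = 0.000542). Both JA arrays lay well below all 4 ethanol arrays. The others were AT2G39210, at 7.31 and 7.82 with JA and 8.49 and 8.46 with ethanol, and AT3G15650, at 4.03 and 4.41 with JA and 5.06 and 5.76 with ethanol.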
